A study of Mus musculus with 2 samples.

Results

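The chemokines Cxcl1, Cxcl2 and Cxcl5, which attract neutrophils, were followed in colonic stromal cells of the mouse. The 3 genes were found by their symbols among 33696 features, each in a single row (ENSMUSG00000029380 for Cxcl1, ENSMUSG00000058427 for Cxcl2 and ENSMUSG00000029371 for Cxcl5). All 3 belong to the CXC chemokines with a glutamate-leucine-arginine motif before the first cysteines. These proteins bind Cxcr2, the receptor that neutrophils carry, and guide neutrophils from blood into inflamed tissue. Their genes are switched on through NF-kappaB by interleukin-1, interleukin-17, tumour necrosis factor and Toll-like receptors, and their mRNAs are short-lived. In the gut, epithelium, macrophages and stromal cells can all make them.

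Il10ra_ff_Pdgfra_cre mice, called Cre here, carried floxed alleles of Il10ra, a chain of the interleukin-10 receptor, and a Cre recombinase driven by the promoter of Pdgfra, a receptor found on fibroblasts and at lower levels on other mesenchymal cells. Il10ra_ff mice, called ff here, carried the floxed alleles without the recombinase. Each genotype gave 1 library. By the series design 2 mice aged 6 months stood behind each genotype, and how they were combined is not stated. From whole colons, live 7AAD-negative cells had been sorted that stained for Podoplanin but not for CD45, CD31 or EpCAM. The 10x Genomics chemistry captured the 5' ends of transcripts, and each captured molecule counts once through its unique molecular identifier (UMI). With 1 library per genotype there was no replicate check and no test: intervals are 95% intervals that cover counting error only, and genotype, mice and library cannot be told apart.

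The Cre library held 8627 barcodes and 66845139 UMIs (median 7332 per barcode), and the ff library 11380 barcodes and 76570611 UMIs (median 6505). After filtering, 8302 Cre cells and 10657 ff cells were kept, of which 105 barcodes occurred in both libraries. Il10ra had 5 UMIs in Cre fibroblasts and 1 UMI in ff fibroblasts, so the counts could not check its deletion. Hbb-bs, a red blood cell transcript, was found in 2.22% of Cre fibroblasts and in 0.282% of ff fibroblasts, and 5048 of its 5262 UMIs in Cre fibroblasts lay in 1 cell. Without the cells that held it, the 3 chemokines in fibroblasts stood at 1679, 77.4 and 42.7 CPM (UMIs of a gene per 1000000 UMIs) in Cre and at 857, 40.3 and 3.53 CPM in ff for Cxcl1, Cxcl2 and Cxcl5.

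Cells were put into classes by marker genes that did not include the 3 chemokines. A fibroblast had at least 3 of 6 general fibroblast markers, such as Col1a1 and Pdgfra, and was then given to the class with the highest marker score. This gave 7663 fibroblasts in Cre (92.3% of kept cells) and 9564 in ff (89.7%). Adventitial fibroblasts (Pi16, Cd248) and trophocytes (Grem1, Ackr4) lie in the deeper layers of the wall, subepithelial PDGFRA-high fibroblasts (Sox6, Bmp7) line the epithelium, lamina propria fibroblasts (Adamdec1, Edil3) fill the mucosa, and interstitial PDGFRA cells (Kcnn3) sit in the muscle. A gate of this kind is a range of scores and not a cell type: 533 Cre fibroblasts (6.96%) and 856 ff fibroblasts (8.95%) lay within 0.1 score units of another class. In the lamina propria gate the median summed level of its own markers was 32.0 per 10000 UMIs in Cre and 23.2 in ff. That of adventitial markers was 6.99 in Cre and 10.3 in ff. The trophocyte gate was set apart far less, with its own markers at 13.7 in Cre and 12.5 in ff. Adventitial markers there were nearly as high, at 11.1 in Cre and 12.3 in ff. The class names below stand for these gates.

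Cxcl1 and Cxcl2 are neighbours on chromosome 5 and their promoters share a sequence feature, which is why both are shown. In the RefSeq order of genes, Cxcl5, Ppbp, Pf4, Cxcl3, Cxcl15, Cxcl1 and Cxcl2 follow each other as 7 neighbouring genes. The RefSeq table of promoters (build GRCm38.p6) held 2 of the 3 members, with no entry for Cxcl5. The 150 bases before each start are given on the plus strand, at chr5:90891095-90891244 for Cxcl1 and chr5:90903749-90903898 for Cxcl2, with matches on either strand to the NF-kappaB type motif (GGG, any 2 bases, TTTCC) in capitals:
Cxcl1: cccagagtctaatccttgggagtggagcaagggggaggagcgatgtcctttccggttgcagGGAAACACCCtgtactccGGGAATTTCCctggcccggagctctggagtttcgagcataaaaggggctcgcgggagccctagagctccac
Cxcl2: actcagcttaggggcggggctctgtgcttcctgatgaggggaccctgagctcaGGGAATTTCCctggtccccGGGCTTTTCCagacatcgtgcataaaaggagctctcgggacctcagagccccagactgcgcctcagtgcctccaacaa
Each promoter held 2 matches that do not overlap. In Cxcl1 they lay at -89 to -80 on the minus strand and at -71 to -62 on the plus strand, counted from the base before the start as -1. In Cxcl2 both were on the plus strand, at -97 to -88 and at -78 to -69, and the sequence GGGAATTTCC occurred in both genes. Of 32851 promoters of the same length (250 bases before to 50 after the start), 535 (1.63%) held the motif and 10 (0.0304%) held it 2 times or more. The interferon response type motif (GAAA, any 2 bases, GAAA), found in 3.44% of promoters, and the letters TATAAA, found in 13.6%, were in neither window on either strand.

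Cxcl1 was at 1679 CPM in Cre fibroblasts (interval 1669 to 1689) and at 857 CPM in ff fibroblasts (850.0 to 864). These levels rested on 102886 UMIs in Cre and 56199 UMIs in ff. The ratio was 1.96 (1.94 to 1.98), a log2 difference of 0.97 with 1 CPM added to each side. More cells also held the transcript, with at least 1 Cxcl1 UMI in 60.8% of Cre fibroblasts (59.7 to 61.9%) and in 45.3% of ff fibroblasts (44.3 to 46.3%). Positive cells held a median of 10 UMIs in Cre and 6 in ff, and the highest cell held 480 in Cre and 244 in ff. The gap between libraries was also there at equal depth: with every cell thinned to 2000 UMIs, 50.6% of Cre cells and 37.1% of ff cells were positive, 418 Cre and 782 ff fibroblasts being too shallow to enter. Among lymphatic endothelial cells, which the sort should have removed, 4 of 41 Cre cells (9.76%) and 3 of 44 ff cells (6.82%) held a Cxcl1 UMI. Their median depths were 2345 UMIs in Cre and 1957 UMIs in ff, against 7568 and 6636.5 UMIs in Cre and ff fibroblasts. The gate was at 201 CPM in Cre and 182 CPM in ff. Its 40 Cre and 43 ff cells that shared a cluster, led by Ccl21a, were at 31.0 and 44.4 CPM. Whether these UMIs were stray or made by the cells was not tested, so the gate is at most a rough measure of stray transcripts.

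The gain in Cxcl1 was uneven over the classes. In trophocytes Cxcl1 reached 2389 CPM in Cre, against 1023 CPM in ff, a ratio of 2.33 (2.27 to 2.40), and 72.5% of Cre cells and 51.8% of ff cells were positive. Adventitial fibroblasts were at 2080 CPM in Cre and 984 CPM in ff (ratio 2.11, 2.08 to 2.15), with 72.7% and 47.7% positive cells in Cre and ff. In both classes the share of strongly positive cells was also higher, with at least 10 UMIs in 44.4% of Cre and 19.6% of ff trophocytes and in 42.0% of Cre and 17.1% of ff adventitial fibroblasts. Interstitial PDGFRA cells were at 1373 CPM in Cre and 838 CPM in ff (1.64, 1.56 to 1.72).

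By the gate, Cxcl1 was not higher in Cre in the mucosal classes. Lamina propria fibroblasts stood at 683 CPM in Cre and 686 CPM in ff, a ratio of 0.995 (0.971 to 1.02), with 44.5% and 42.9% positive cells in Cre and ff. Subepithelial fibroblasts were lower in Cre, at 646 CPM against 883 CPM in ff, a ratio of 0.731 (0.700 to 0.764). Their share of positive cells was close in the libraries, 42.2% in Cre (38.02 to 46.4%) and 43.9% in ff (41.4 to 46.5%), so the lower level lay in fewer UMIs per positive cell, a median of 5 in Cre and 7 in ff. The size of this difference moved with the processing, from a log2 value of -0.45 to -0.20 with doublet calls kept. The lamina propria gate held different clusters in the libraries (cluster 1 in Cre, clusters 0 and 3 in ff), and by cluster the picture was mixed. Within cluster 1 Cxcl1 was at 721 CPM in 1969 Cre cells and 386 CPM in 119 ff cells (1.87, 1.65 to 2.12), and within cluster 0 at 683 CPM in 168 Cre cells and 625 CPM in 2756 ff cells (1.09, 1.01 to 1.18). Within cluster 10 it was at 444 CPM in Cre and 493 CPM in ff (0.901, 0.824 to 0.986). Cluster 3, with 35 Cre cells, was at 378 CPM in Cre and 855 CPM in ff. In ff the fibroblast classes spanned 686 to 1023 CPM, and in Cre 646 to 2389 CPM. In the order of levels within ff, the counting interval of the fibroblasts of no class overlapped those of the adventitial class and of trophocytes. The subepithelial and interstitial classes also had overlapping intervals. In Cre only the lamina propria and subepithelial classes overlapped among the fibroblasts.

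**Figure D1:**
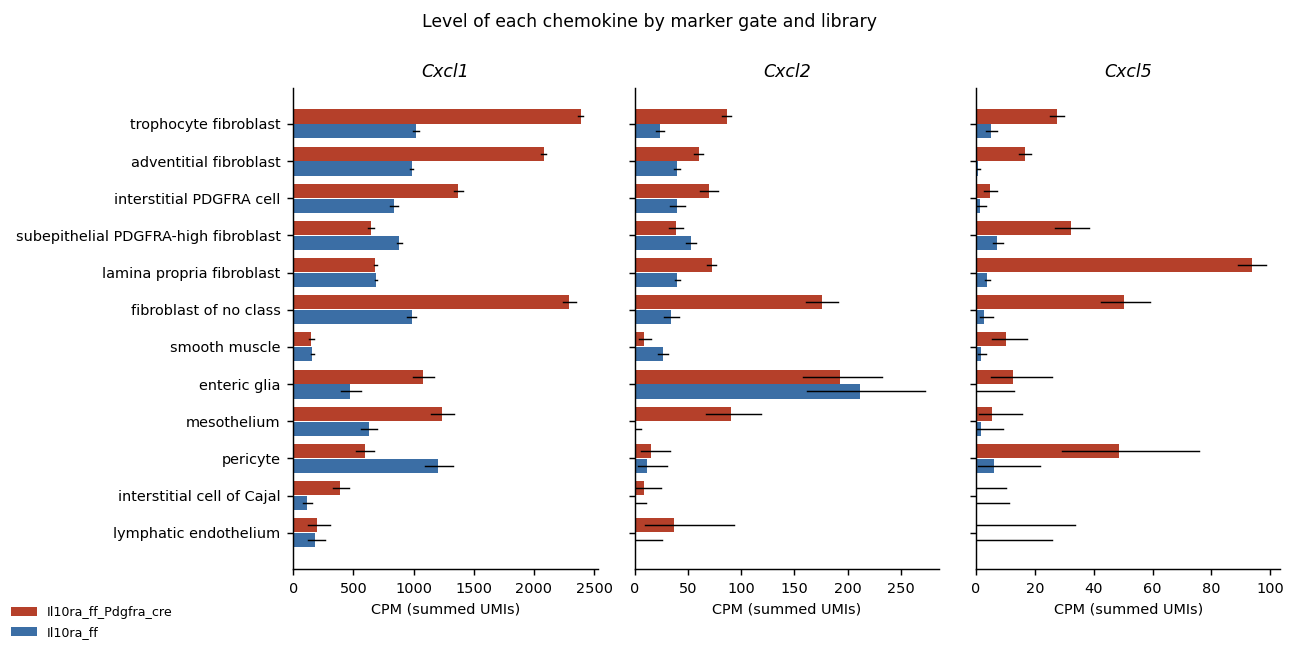
Level of Cxcl1, Cxcl2 and Cxcl5 in CPM (x axis, linear) in each marker gate (rows), with Cre bars in red above ff bars in blue; black lines are 95% Poisson intervals over summed UMIs of 1 library each. Cxcl1 is higher in Cre in trophocytes and adventitial fibroblasts (2389 and 2080 CPM in Cre, 1023 and 984 CPM in ff), among the 12 gates plotted Cxcl2 is highest in glia in both libraries, and Cxcl5 is highest in the lamina propria gate of Cre (93.7 CPM).

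Other stromal cells spanned a wide range of Cxcl1. Smooth muscle was at 149 CPM in Cre (129 to 172) and 159 CPM in ff (148 to 171), with overlapping intervals. Enteric glia, the support cells of the gut's neurons, were at 1081 CPM in 97 Cre cells and 472 CPM in 58 ff cells, and mesothelium, the outer lining of the gut, at 1239 CPM in 46 Cre cells and 627 CPM in 59 ff cells. Pericytes ran the other way, with 592 CPM in 43 Cre cells and 1206 CPM in 49 ff cells, the highest ff level among the 12 gates with at least 41 cells in each library, but 153 of the 402 ff UMIs came from a single cell.

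Because the trophocyte gate also took a larger share of Cre fibroblasts, it held a large part of the transcript. In Cre the gate made up 29.9% of fibroblasts and 45.4% of the Cxcl1 UMIs. In ff it made up 10.6% of fibroblasts and 11.4% of the UMIs. The lamina propria gate held 10.8% of the Cxcl1 UMIs in Cre and 28.6% in ff. With the 5 classes weighted alike, the log2 difference of Cxcl1 was 0.70 in place of 0.97.

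The classes were not made of the same cells in the libraries, and the size of the Cxcl1 difference depended on how cells were grouped. Unsupervised clustering gave 19 clusters, and those that made up a gate differed between libraries. Of adventitial cells, 35.5% in Cre lay in cluster 5 (led by Npy1r, Cfb and Ifit1) and 22.8% in cluster 4 (Myoc, Sfrp4), and these were at 2102 and 3270 CPM of Cxcl1. In ff 47.0% lay in cluster 2 and 18.2% in cluster 7, both led by Pi16. Within cluster 2 adventitial cells were at 1166 CPM in Cre and 1042 CPM in ff, and within cluster 7 at 1192 CPM in Cre and 1266 CPM in ff. Taking the adventitial class as these Pi16 clusters gave a log2 difference of 0.20, in place of 1.08 by the gate. Cluster 5 held 1470 Cre cells and 80 ff cells, so it may reflect that library rather than a cell type. The interstitial PDGFRA gate was mixed as well. Only 48.1% of it in Cre and 24.8% in ff lay in cluster 11, led by Kcnn3. The gated cells in that cluster were at 647 CPM of Cxcl1 in Cre and 257 CPM in ff. Most of the gate, and so much of its level, came from other clusters.

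Trophocyte-gated cells kept a clear difference within clusters 8 and 4 and a smaller one within cluster 7, but much of the gate lay elsewhere. In Cre 29.1% of it lay in cluster 5, which held few ff cells, at 2849 CPM of Cxcl1. In ff 23.3% lay in cluster 0 at 849 CPM and 11.7% in cluster 2 at 1179 CPM. The gate's ratio thus also sets different clusters against each other. Trophocyte-gated cells were at 1401 CPM in Cre and 646 CPM in ff within cluster 8, and at 3287 and 1883 CPM within cluster 4. In cluster 7, with 20.6% of the ff gate and 6.93% of the Cre gate, they were at 1481 CPM in Cre and 1265 CPM in ff. Taken whole, cluster 8, led by the trophocyte markers Grem1 and Ackr4, was at 1310 CPM in 908 Cre cells and 642 CPM in 443 ff cells (2.04, 1.93 to 2.16). Cluster 4, which held 693 trophocytes and 482 adventitial cells, was at 3148 CPM in Cre and 1965 CPM in ff (1.60, 1.56 to 1.65). Over the 9 fibroblast clusters with at least 100 cells in each library, the Cxcl1 ratio ran from 0.581 to 2.09, with the interval above 1 in 7 clusters and below 1 in 2. The lowest was cluster 6, led by the subepithelial marker Sox6, at 454 CPM in Cre and 780 CPM in ff. The mean over these clusters, each weighted alike, differed by 0.41 on the log2 scale.

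**Figure D2:**
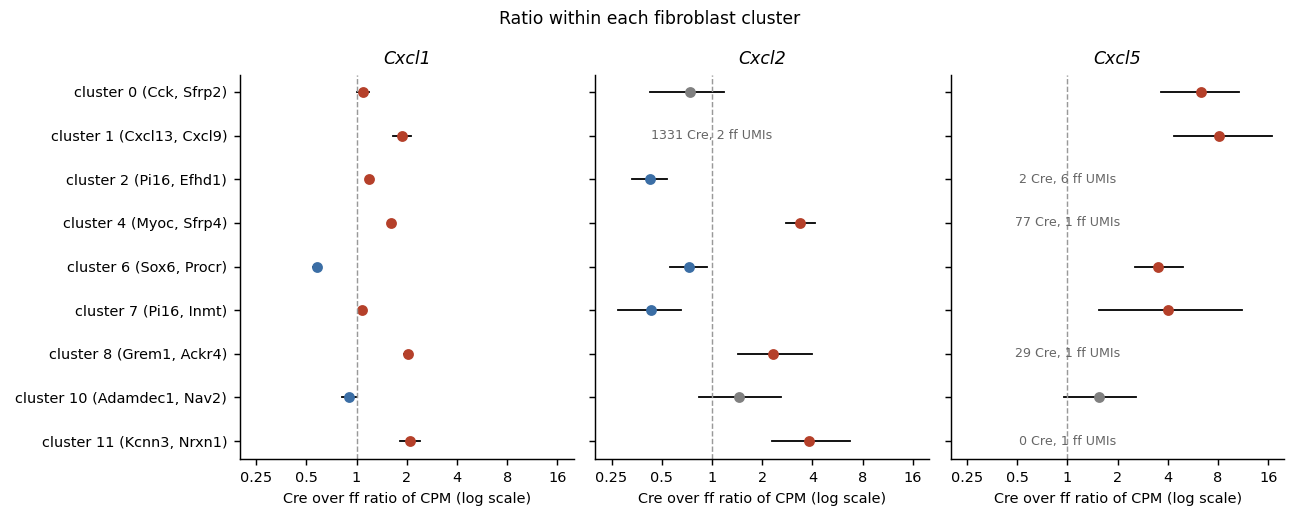
Ratio of CPM, Cre over ff (x axis, log scale), within each fibroblast cluster that had at least 100 cells per library (rows, with 2 leading genes), with 95% intervals for counting error; red points have an interval above 1, blue points below 1 and grey points across 1, and clusters with fewer than 3 UMIs in a library show the counts in place of a point. Cxcl1 ratios lie between 0.581 and 2.09, Cxcl2 points fall on both sides of 1, and no Cxcl5 point lies below 1.

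Cxcl2 was carried by few cells, each with several UMIs. It was at 76.6 CPM in Cre fibroblasts (74.4 to 78.8; 4693 UMIs) and 40.3 CPM in ff fibroblasts (38.8 to 41.8; 2641 UMIs), a ratio of 1.90 (1.81 to 2.00). At least 1 UMI was found in 6.22% of Cre fibroblasts (5.69 to 6.79%) and 3.27% of ff fibroblasts (2.93 to 3.65%), and positive cells held a median of 4 UMIs in both libraries. The 1% of fibroblasts with the most Cxcl2 UMIs held 61.0% of them in Cre and 76.8% in ff, against 14.6% in Cre and 18.4% in ff for Cxcl1. Without the 1% of cells richest in Cxcl2 in each library, the log2 difference was 1.65 in place of 0.91, so the level in either library rested on a small number of cells. Smooth muscle, at depths close to those of fibroblasts, had a Cxcl2 UMI in 2.78% of Cre cells (5 of 180) and 3.14% of ff cells (22 of 701), so the share in ff fibroblasts was near that of smooth muscle. Positive smooth muscle cells of ff also held a median of 4 UMIs, so smooth muscle gives no measure of stray Cxcl2.

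By class, Cxcl2 was highest in trophocytes of Cre among the named fibroblast classes and lowest there in ff. Trophocytes were at 86.5 CPM in Cre and 23.4 CPM in ff, a ratio of 3.70 (3.12 to 4.41). This gate too held different clusters in the libraries, and its Cre cells in cluster 5 were at 130 CPM. Its cells were at 23.5 CPM in Cre and 10.4 CPM in ff within cluster 8. Within cluster 4 they were at 109 CPM in Cre and 28.8 CPM in ff. Within cluster 7 they were lower in Cre, at 2.56 CPM against 7.33 CPM in ff. Lamina propria fibroblasts were at 72.3 CPM in Cre and 40.1 CPM in ff (1.80, 1.65 to 1.97), interstitial PDGFRA cells at 69.4 CPM in Cre and 39.5 CPM in ff (1.76, 1.42 to 2.19) and adventitial fibroblasts at 60.1 CPM in Cre and 40.1 CPM in ff (1.5, 1.36 to 1.65). Fibroblasts of no class, whose median depth of 3594 UMIs in Cre and 2620 in ff was the lowest among fibroblasts, were at 176 CPM in Cre and 33.8 CPM in ff. In the ff order the adventitial, lamina propria and interstitial classes, the fibroblasts of no class and smooth muscle each overlapped the next.

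Subepithelial fibroblasts again went the other way, at 38.5 CPM in Cre and 52.7 CPM in ff (0.730, 0.607 to 0.873). The log2 difference of -0.44 was small beside its changes with the processing. It was -0.12 without the richest 1% of subepithelial cells in each library, an alternative chosen after seeing the data, and -0.01 in cells thinned to 2000 UMIs. It was 1.42 without the richest 1% of all cells of each library, a limit that falls at different UMI counts in the libraries. The adventitial difference also turned with the grouping, from a log2 value of 0.57 by the gate to -1.23 in the Pi16 clusters. Those clusters were lower in Cre, cluster 2 at 24.7 CPM in Cre and 58.2 CPM in ff and cluster 7 at 15.2 CPM in Cre and 35.4 CPM in ff. Cluster 4 (129 CPM in Cre, 38.3 CPM in ff) and cluster 11, led by Kcnn3 (76.7 CPM in Cre, 20.2 CPM in ff), were higher in Cre.

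Among the 12 gates with at least 41 cells in each library, the highest level of Cxcl2 was in enteric glia in both libraries, with an interval that overlapped that of the fibroblasts of no class in Cre and no other gate's in ff. Glia were at 193 CPM in Cre (158 to 233; 108 UMIs) and 211.5 CPM in ff (161 to 272; 60 UMIs), with 18.6% of 97 Cre cells and 15.5% of 58 ff cells positive. The ratio of 0.911 had an interval of 0.658 to 1.27. Glia held 17.8 Cxcl2 UMIs per 100 Cxcl1 UMIs in Cre and 44.8 in ff, against 4.56 in Cre and 4.70 in ff fibroblasts, so the proportion of Cxcl2 to Cxcl1 in glia was unlike that in fibroblasts. Smooth muscle was lower in Cre, at 8.64 CPM from 11 UMIs against 26.7 CPM from 126 UMIs in ff. In mesothelium 50 UMIs were found in 3 of 46 Cre cells and none in 59 ff cells, which allows up to 4.92 CPM there.

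Cxcl5 showed the largest ratio of the 3 members in fibroblasts. It was at 42.4 CPM in Cre (40.8 to 44.1; 2601 UMIs) and 3.54 CPM in ff (3.10 to 4.02; 232 UMIs), a ratio of 12.0 (10.5 to 13.8) and a log2 difference of 3.26. Cells with at least 1 UMI made up 9.32% of Cre fibroblasts (8.68 to 9.99%) and 1.08% of ff fibroblasts (0.880 to 1.30%). At equal depth the shares were 4.25% in Cre and 0.524% in ff. Among the 9036 genes whose mean in fibroblasts reached 10 CPM, 1.83% were at least 2-fold higher in Cre and 0.963% at least 2-fold lower on this scale. Of the 3 members Cxcl5 passed that fold, while Cxcl1 at a log2 value of 0.97 and Cxcl2 at 0.91 fell just short of it.

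The transcript was concentrated in the lamina propria gate of Cre. It stood there at 93.7 CPM in Cre (89.1 to 98.6) and 3.92 CPM in ff (3.16 to 4.81), a ratio of 23.9 (19.4 to 29.8). A UMI was found in 432 of 2098 Cre cells (20.6%) and in 51 of 3029 ff cells (1.68%). These Cre cells were 27.4% of fibroblasts and held 58.6% of the Cxcl5 UMIs. In ff the lamina propria gate held 39.7% of the Cxcl5 UMIs and the subepithelial gate 34.1%.

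Cxcl5 was higher in Cre in all 5 fibroblast classes, but from few UMIs in some. Subepithelial fibroblasts were at 32.2 CPM in Cre and 7.27 CPM in ff (4.43, 3.33 to 5.94), where ff had its highest level. Trophocytes were at 27.4 CPM in Cre and 5.09 CPM in ff (5.39, 3.77 to 7.96), and 16 of the 32 ff UMIs came from 1 cell. Adventitial fibroblasts were at 16.6 CPM in Cre and 0.845 CPM in ff (19.7, 11.9 to 34.9), the ff level resting on 16 UMIs. Interstitial PDGFRA cells had 18 UMIs in Cre and 5 in ff (3.02, 1.08 to 10.4), and in thinned cells the log2 difference was -1.15.

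How much of the lower shares was stray transcript could be judged only in part. Smooth muscle held a Cxcl5 UMI in 9 of 180 Cre cells (5%) and 6 of 701 ff cells (0.856%), at 6414 UMIs per cell in Cre and 6621 in ff (medians). The share in Cre adventitial fibroblasts, 3.83% at a median of 8835 UMIs, was below it, and the 5.66% in Cre trophocytes was near it. Single cells went higher than in Cre smooth muscle, however, where no cell held more than 3 UMIs: the highest adventitial cell of Cre held 34. At equal depth smooth muscle stood at 2.86% of 175 Cre cells, with a wide interval of 0.934 to 6.54%. Interstitial PDGFRA cells stood at 0.230%, adventitial fibroblasts at 1.36%, trophocytes at 2.46% and subepithelial fibroblasts at 3.66%. The lamina propria gate, at 9.49% (8.25 to 10.9%), stood furthest above smooth muscle. Smooth muscle was itself higher in Cre, at 10.2 CPM from 13 UMIs against 1.69 CPM from 8 UMIs in ff (6.03, 2.32 to 16.8). Cxcl5 had no UMI in 41 Cre and 44 ff lymphatic endothelial cells, which allows a share of cells with a UMI of up to 7.32% in Cre and 6.82% in ff at these cells' low depth, and none in 51 Cre and 46 ff interstitial cells of Cajal.

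**Figure D3:**
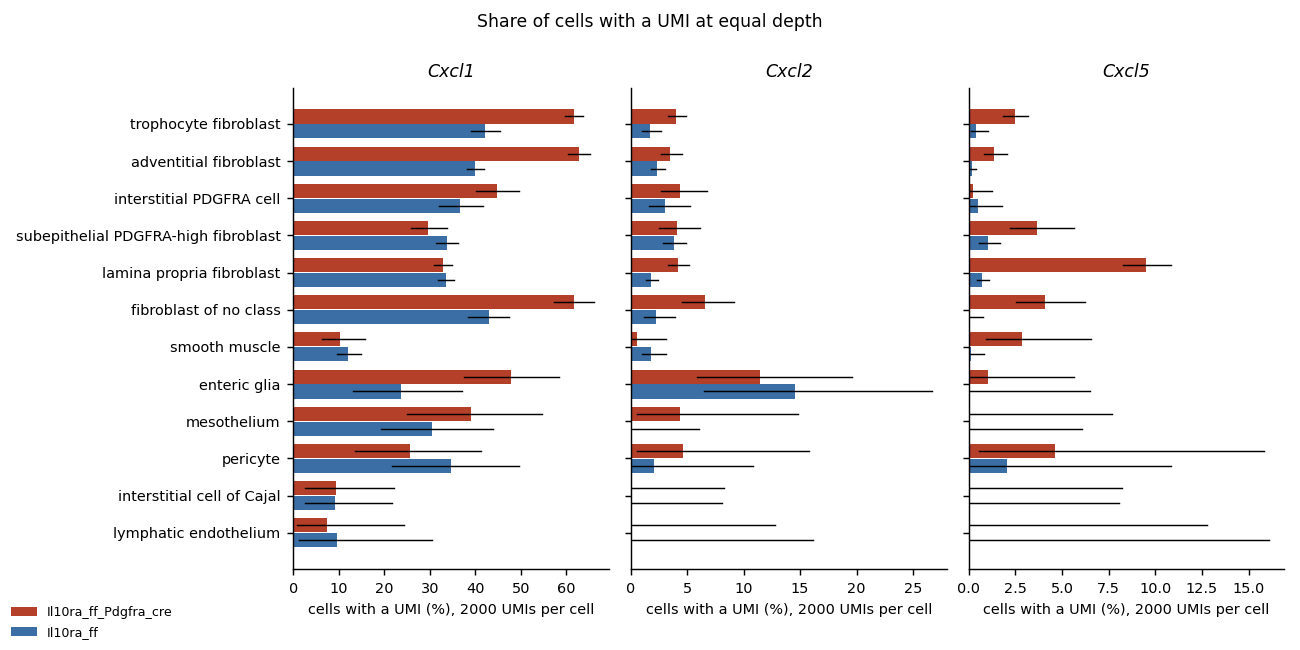
Share of cells with at least 1 UMI (x axis, percent) after thinning each cell to 2000 UMIs, by marker gate, with Cre bars in red above ff bars in blue and 95% Clopper-Pearson intervals. In the lamina propria gate 9.49% of Cre cells and 0.719% of ff cells hold Cxcl5, while Cxcl1 shares there are 32.9% in Cre and 33.5% in ff.

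The Cre and ff cells of the lamina propria gate lay in different clusters. Of the Cre lamina propria gate, 79.8% lay in cluster 1, whose leading genes were Cxcl13, Cxcl9, Chl1 and Cxcl5 itself, whereas 54.1% of the ff gate lay in cluster 0 and 35.2% in cluster 3. Cluster 1 held 1969 Cre and 119 ff cells, and cluster 3 held 35 Cre and 1741 ff cells, so either may reflect its library rather than a cell type. Chemokine genes were kept out of the clustering, so Cxcl5 did not shape cluster 1. As a leading gene it was picked for its high level there, so that level is not set against other clusters. Within cluster 1 Cxcl5 was at 122 CPM in Cre and 15.1 CPM in ff, with 24.7% of Cre and 3.36% of ff cells positive. In cluster 10, led by Adamdec1 and nearly even between the libraries (378 Cre and 321 ff cells), Cxcl5 was at 22.2 CPM in Cre and 14.3 CPM in ff (1.55, 0.953 to 2.58). In cluster 6 it was at 29.7 CPM in Cre and 8.44 CPM in ff (3.51, 2.53 to 4.92). With each of the 9 clusters weighted alike the log2 difference was 2.03.

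Counted by class with the 2-fold rule, the members stood as follows. In trophocytes Cxcl1, Cxcl2 and Cxcl5 all passed, where 1.42% of genes were that much higher and 0.557% that much lower in Cre. In lamina propria fibroblasts Cxcl5 passed, where 2.05% of genes did so upwards and 1.15% downwards. In adventitial fibroblasts Cxcl1 passed (1.97% of genes higher, 0.908% lower) and Cxcl5 had too low a mean to be counted. In subepithelial fibroblasts Cxcl5 passed (1.82% higher, 1.11% lower), and in interstitial PDGFRA cells neither Cxcl1 nor Cxcl2 did (1.54% higher, 2.4% lower). In smooth muscle Cxcl2 was past 2-fold lower, where 1.47% of genes were lower and 2.63% higher.

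Within single cells Cxcl1 and Cxcl2 went together, in both libraries. Among fibroblasts thinned to 2000 UMIs, a Cxcl1 UMI was found in 86.3% of 300 Cxcl2-positive Cre cells and in 49.1% of 6945 Cxcl2-negative ones. In ff the shares were 77.2% of 206 positive cells and 36.1% of 8576 negative ones. The level of Cxcl1 moved likewise, at 3955 CPM with and 1308 CPM without Cxcl2 in Cre, and 3039 CPM with and 731 CPM without it in ff. The same held inside the lamina propria gate, where 75.0% of Cxcl2-positive and 31.0% of Cxcl2-negative Cre cells held Cxcl1.

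Over all Cre fibroblasts Cxcl5 was less tied to Cxcl1 than Cxcl2 was. In Cre fibroblasts 51.9% of 308 Cxcl5-positive cells and 50.5% of 6937 Cxcl5-negative cells held a Cxcl1 UMI, with overlapping intervals. That comparison mixes classes, and Cxcl5 and Cxcl1 were highest in different ones. Inside the lamina propria gate of Cre, Cxcl1 was found in 42.2% of Cxcl5-positive cells (35.1 to 49.5%) and 31.9% of Cxcl5-negative cells (29.8 to 34.1%). In the subepithelial gate of Cre it was found in 63.2% of only 19 Cxcl5-positive cells (38.4 to 83.7%) and 28.4% of 500 negative ones (24.5 to 32.6%). In Cre trophocytes and adventitial fibroblasts the intervals overlapped, and the interstitial gate held 1 Cxcl5-positive cell, without Cxcl1. Cxcl2 was found in 9.42% of Cxcl5-positive and 3.91% of Cxcl5-negative Cre fibroblasts. In ff only 46 thinned cells were Cxcl5-positive, too few for a close comparison.

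**Figure D4:**
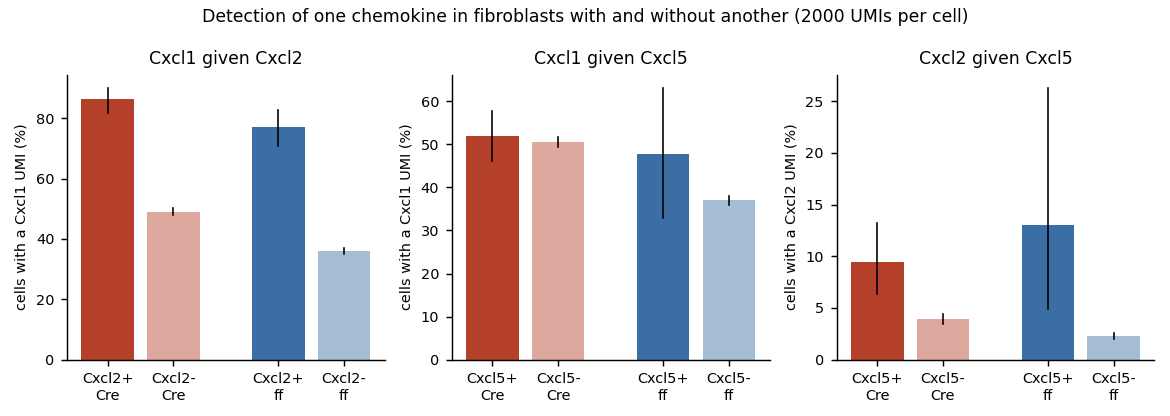
Share of fibroblasts with a UMI of one chemokine (y axis, percent) among cells with (dark) and without (pale) a UMI of another, with Cre in red left of ff in blue, each cell thinned to 2000 UMIs; black lines are 95% Clopper-Pearson intervals. Cxcl1 is found in 86.3% of Cxcl2-positive and 49.1% of Cxcl2-negative Cre cells. With all classes mixed, its share hardly differs with Cxcl5 in Cre (51.9% and 50.5%).

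Of the other genes of the family little was seen. Cxcl3, a close relative of Cxcl2, had 26 UMIs in 3 Cre fibroblasts and 1 UMI in ff. Cxcl15 and Ppbp (the platelet chemokine) had none in either library, which allows up to 0.0490 CPM in Cre and 0.0458 CPM in ff. Among the receptors, Cxcr1 had none, Cxcr2 had 2 UMIs in Cre and none in ff, and Ackr1, a decoy receptor that binds chemokines without signalling, was at 6.27 CPM in Cre and 8.57 CPM in ff. Cxcl1 and Cxcl2 are flanked by Mthfd2l, which was at 31.5 CPM in Cre and 38.9 CPM in ff, so the higher levels did not extend to this neighbour.

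Neutrophils were nearly absent from the kept cells. Over all of these, S100a8 had 373 UMIs in 9 Cre cells and 29 UMIs in 18 ff cells. S100a9 had 403 UMIs in 9 Cre cells and 0 in ff. Fibroblasts held summed levels of 0.522 CPM in Cre and 0.580 CPM in ff over 8 neutrophil markers, of which 1 was at 0 in Cre and 2 were at 0 in ff. The gate had taken neutrophils out of the fibroblasts, so these sums do not measure neutrophils in the sort. The gate for neutrophils took 3 Cre cells, which held 107 Cxcl2 UMIs, and no ff cell. That for macrophages took 16 Cre cells and 2 ff cells. Only 2 of these macrophage-gated cells lay in cluster 18, led by Cd74, and the rest lay in fibroblast clusters. The macrophage gate is thus not a clean set of macrophages. Both gates lie outside the fibroblast values.

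Signalling genes upstream of the chemokines were mostly flat. Counts are of genes whose mean reached 10 CPM and that differed by at least 1.5-fold, a size reached upwards by 3.84% and downwards by 3.15% of all genes in fibroblasts, with a median log2 difference of -0.04 over all genes. Of 14 cytokine and Toll-like receptors and adaptors 1 was higher and none lower (median 0.25). It was Myd88, the adaptor of interleukin-1 and Toll-like receptors, at 109 CPM in Cre and 72.2 CPM in ff. Il1r1, the interleukin-1 receptor, came next at 73.2 CPM in Cre and 50.3 CPM in ff, while Il17rc and Ltbr had the lowest values, -0.22 and -0.12 on the log2 scale.

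Of 17 NF-kappaB subunits, kinases, inhibitors and partners 3 were higher and none lower (median 0.30). Tnip1, a partner of the inhibitor Tnfaip3, was at 48.9 CPM in Cre and 26.6 CPM in ff, and Nfkbiz, a co-activator of NF-kappaB target genes, at 409 CPM in Cre and 238 CPM in ff. The third was Nfkbie, an inhibitor, at 16.7 CPM in Cre and 10.6 CPM in ff. Chuk and Ikbkg, subunits of the activating kinase, were the lowest at -0.05 and 0.01. None of 9 regulators of chemokine mRNA stability passed 1.5-fold (median -0.02): the extremes were Zfp36, which speeds decay of such mRNAs, at 0.33 and Zc3h12a at 0.17, and Hnrnpd at -0.21 and Elavl1 at -0.10.

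Other inflammatory genes of stroma moved more. Of 7 with enough counts 5 were higher and 1 lower (median 0.84). Saa3, an acute phase protein, was at 132 CPM in Cre and 3.58 CPM in ff, and Ccl7, a chemokine for monocytes, at 574 CPM in Cre and 218 CPM in ff. Ptgs2, the inducible prostaglandin synthase, was lower, at 186 CPM in Cre and 357 CPM in ff, and Csf1 was at -0.21 on the log2 scale. Csf3, the growth factor of neutrophils, had 181 UMIs in Cre fibroblasts and 2 in ff, and Lcn2, an iron-binding protein of neutrophils and inflamed tissue, 541 in Cre and 5 in ff, both under the level at which genes were counted. Csf3 and Lcn2 were named after their values were seen.

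By class, NF-kappaB genes past 1.5-fold were most frequent where Cxcl1 was higher in Cre. In trophocytes 6 of 16 were higher and none lower, where 3.24% of all genes were higher and 1.9% lower. In adventitial fibroblasts 4 of 15 were higher (3.74% of all genes higher, 2.76% lower), and in interstitial PDGFRA cells 3 of 16 (5.4% higher, 5.45% lower). In lamina propria fibroblasts, where Cxcl1 was level, 2 of 17 were higher (5% higher, 3.27% lower). In subepithelial fibroblasts 1 of 17 was higher and 2 were lower (5.22% higher, 3.5% lower), and in smooth muscle 1 of 16 was higher (7.33% higher, 6.06% lower). Differences between classes were not tested.

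Immediate early genes mark the stress of dissociation. In fibroblasts as a whole none of 18 passed 1.5-fold, with a median of -0.04. They did move by class. In subepithelial fibroblasts, where Cxcl1 and Cxcl2 were lower in Cre, 9 of 18 were at least 1.5-fold lower and none higher (median -0.58). In smooth muscle 11 of 18 were lower (median -0.62) and in lamina propria fibroblasts 2 of 18 (median -0.34). In trophocytes, adventitial fibroblasts and interstitial PDGFRA cells none passed (medians -0.05, 0.02 and -0.15). Their part in the chemokine differences was not tested.

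Cells with a Cxcl1 UMI also held more transcripts of the NF-kappaB pathway than cells of the same gate and library without. In Cre trophocytes, 1663 positive cells (median depth 8800 UMIs) were set against 632 negative ones (6548 UMIs). Of 17 NF-kappaB genes 8 were at least 1.5-fold higher in the positive cells and none lower, where 1.51% of all genes were higher and 1.91% lower. Tnfaip3, a feedback inhibitor, was at 77.4 CPM in cells with and 31.8 CPM in cells without Cxcl1, and Ccl2, a monocyte chemokine, at 806 CPM with and 249.9 CPM without. In ff trophocytes 2 of 16 were higher (1.15% of all genes higher, 2.7% lower), with Tnfaip3 at 57.2 CPM with and 22.3 CPM without Cxcl1. Tnfaip3 and Ccl2 were named after their values were seen.

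Some NF-kappaB genes were also higher with Cxcl1 in the lamina propria and adventitial gates. In the lamina propria gate 8 of 17 NF-kappaB genes were higher with Cxcl1 in Cre (1.73% of all genes higher, 0.851% lower) and 4 of 17 in ff (0.741% higher, 0.42% lower). In the adventitial gate they were 7 of 16 in Cre (1.5% higher, 3.8% lower) and 8 of 15 in ff (0.883% higher, 0.33% lower). In the lamina propria gate the median over NF-kappaB genes was 0.57 in Cre and 0.41 in ff, and in the adventitial gate 0.45 in Cre and 0.67 in ff, each beside a median of all genes between -0.11 and -0.06. Medians of the receptors upstream lay between -0.02 and 0.07 over the 3 gates and both libraries. Of 18 dissociation stress genes, 11 were at least 1.5-fold higher with Cxcl1 in the lamina propria gate of Cre (median 0.69) and 1 in that of ff (median 0.42). In trophocytes 2 were higher in Cre and 1 in ff (medians 0.35 and 0.19), and in adventitial fibroblasts likewise 2 in Cre and 1 in ff (medians 0.27 and 0.30). Cells with Cxcl1 were deeper, so the split also follows depth, and neither its part nor that of stress was tested.

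**Figure D5:**
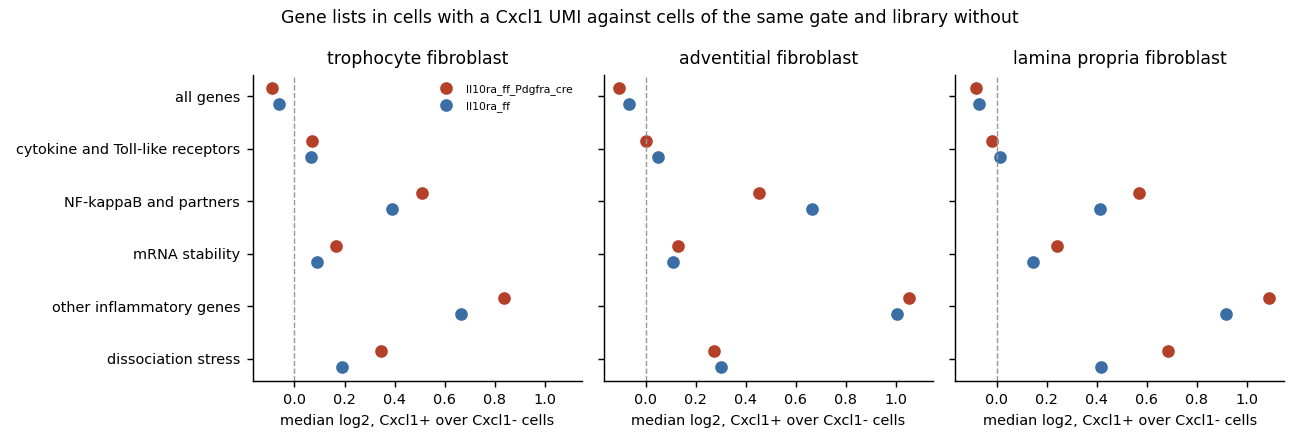
Median log2 difference of each gene list between cells with and without a Cxcl1 UMI (x axis) in 3 gates, with Cre in red above ff in blue; each point is 1 library. NF-kappaB genes lie between 0.39 and 0.67 and other inflammatory genes between 0.66 and 1.09, while the upstream receptors stay between -0.02 and 0.07.

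Cells with Cxcl2 showed this too. Over all fibroblasts 7 of 16 NF-kappaB genes were at least 1.5-fold higher in the 477 Cre cells with Cxcl2 than in the 7186 without (1.42% of all genes higher, 1.16% lower). In ff, 10 of 17 were higher in 313 cells with than in 9251 without (1.99% higher, 2.06% lower). Inside the lamina propria gate 11 of 17 were higher in Cre (2.78% higher, 4.86% lower), and in ff 13 of 17 were higher and 1 lower (4.89% higher, 7.03% lower). Cells with Cxcl2 were deeper as well, at a median of 9732 UMIs with and 7437 without it in Cre fibroblasts.

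Cells with Cxcl5 were compared in the same way. In the lamina propria gate of Cre, Saa3 was at 613 CPM in the 432 cells with Cxcl5 and 86.2 CPM in the 1666 without, and Ccl2 at 760 CPM with and 138 CPM without. Il6, an inflammatory cytokine, was at 83.8 CPM with and 84.8 CPM without. In ff, 51 cells with Cxcl5 stood at 358 CPM of Saa3, against 2.13 CPM in the 2978 without. Of 17 NF-kappaB genes 3 were at least 1.5-fold higher with Cxcl5 in Cre, where 0.995% of all genes were higher and 0.92% lower, and 4 of 17 in ff, where 8.7% were higher and 7.85% lower. Saa3, Ccl2 and Il6 were named after their values were seen.

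The genes whose levels ran most like each member over 18 pools of at least 50 cells (a class in a library, which share depth and makeup within a library) differed between members. The likeness is Pearson's r of log2 CPM, with 10 CPM added, over 9291 genes ranked, as a description. The pools came from both libraries, so r also follows the difference between libraries. For Cxcl5 the highest ff level in the order of gates was 7.27 CPM, below the 10 CPM added, so its ff pools differed little. For Cxcl1 the top genes were Timp1 (0.93), Myd88 (0.93), Ptp4a1 (0.89), Taf4b (0.89) and Baz1a (0.87). For Cxcl2 they were Litaf (0.88), Pdss1 (0.88), Dcun1d3 (0.87), Dusp16 (0.87) and Rhoj (0.86), and for Cxcl5 Saa3 (0.89), H2-T22 (0.88), H2-T23 (0.86), Cxcl9 (0.85) and Sod2 (0.85). Between the members themselves r was 0.51 for Cxcl1 and Cxcl2, 0.36 for Cxcl1 and Cxcl5, and 0.39 for Cxcl2 and Cxcl5.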

How the data were processed

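Single cells of 1 library per genotype were read as 10x 5' count matrices of 33696 features. Per the submitters' processing notes the authors used Cell Ranger 8.0.1 and build GRCm39, and the deposited values are whole-number UMI counts, not normalized. A barcode was kept if it held 500 genes or more and no more than 10% of its UMIs were mitochondrial, and doublets were called per library with Scrublet in scanpy 1.11.5 and removed (111 in Cre, 393 in ff). Where a symbol had duplicate rows, the first was read for named genes, and all rows stayed separate in counts over all genes. Clusters were made with leidenalg 0.10.2 at resolution 1 from 2000 variable genes, 30 components and 15 neighbours, both libraries together. The members, other Cxcl and Ccl chemokines and the genes of the lists were kept out of the variable genes.

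Each cell was gated by the mean z score of log counts per 10000 UMIs over marker genes. A fibroblast needed 3 of 6 general markers, a class 2 detected markers and a score above 0, and another cell type 3 markers and a score above 1. These thresholds were chosen after the data were seen. Counts were summed per gate and library and divided by all UMIs (CPM); log2 differences had 1 CPM added. Intervals are exact Poisson for levels, exact binomial for ratios and Clopper-Pearson for shares, all 95%. A count of 0 was bounded by 3 counts. Shares were also given after thinning to 2000 UMIs. Genes were counted as measured at a mean of 10 CPM or more. The fold rule was tested on simulated counts.

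The members and lists were chosen with earlier results of these data known. Named genes were all chemokines and receptors of the family, the 2 highest and 2 lowest genes of the other lists and the 5 genes most like each member over pools, with class markers left out; others are said to be chosen after their values were seen. Alternatives covered the barcode filter, doublets, denominator, scaling, pseudocount, weighting, richest cells, definition of classes and depth. Python 3.11.15, numpy 2.4.6, scipy 1.17.1 and pandas 2.3.3 were used.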

Additional observations from a re-analysis of the deposited data

Results flagged for a closer look

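Subepithelial PDGFRA-high fibroblasts moved against other classes for 2 of the chemokines. Cxcl1 had a log2 difference of -0.45 (Cre over ff) there, whereas it was 1.08 in adventitial fibroblasts, 1.22 in trophocytes and 0.71 in interstitial PDGFRA cells. Cxcl2 had -0.44 there, whereas it was positive in those classes and in lamina propria fibroblasts (0.57, 1.84, 0.80 and 0.84). With 1 library per genotype the difference between classes was not tested, and no library could be checked against others of its group.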

How the results depend on the processing

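No paired analysis was possible because each genotype had 1 library. Of 240 recomputed log2 differences over 18 ratios in fibroblasts and their classes, 231 kept their sign. Values below are log2 differences in fibroblasts, Cre over ff, for Cxcl1, Cxcl2 and Cxcl5 (0.97, 0.91 and 3.26 as reported). They were 0.85, 0.80 and 2.95 as means over cells, 0.70, 0.73 and 2.92 with classes weighted alike, 1.05, 1.65 and 4.27 without the 1% of cells richest in the member, and 0.85, 0.81 and 2.95 in thinned cells. Median-of-ratios scaling gave 1.01 for Cxcl1, and 10 CPM added gave 0.78 for Cxcl2 and 1.95 for Cxcl5. Among alternatives chosen after seeing the data, leaving out cells near a gate's cut gave 0.94 for Cxcl1, leaving out the richest 1% of fibroblasts gave 1.04, 1.58 and 4.28, and weighting fibroblast clusters alike gave 0.41, 0.78 and 2.03.

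Shares of positive fibroblasts fell with thinning, to 50.6% in Cre and 37.1% in ff for Cxcl1, 4.14% and 2.35% in Cre and ff for Cxcl2, and 4.25% and 0.524% in Cre and ff for Cxcl5. Without the richest cells they were 5.27% in Cre and 2.25% in ff for Cxcl2, and 8.32% in Cre and 0.0528% in ff for Cxcl5. Since 1.08% of ff fibroblasts held Cxcl5, leaving out 1% of cells removes nearly all of them by construction. These Cxcl5 shares, and the Cxcl5 log2 differences without the richest cells given above, say nothing of stability. Genes at least 2-fold higher and lower in Cre fibroblasts numbered 165 and 87, against 66 and 25 at a minimum of 50 CPM, 311 and 198 with no minimum, and 105 and 44 with 10 CPM added.

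In 9 cases the sign turned. Cxcl2 in subepithelial fibroblasts was 1.42 without the richest cells of each library (-0.12 without the richest 1% of the class), and in adventitial fibroblasts -1.23 with classes taken from clusters. Cxcl5 in interstitial PDGFRA cells, from 18 UMIs in Cre and 5 in ff, was -1.13 with classes from clusters and -1.15 in thinned cells. The other 5 were Cxcl1 in lamina propria fibroblasts, which lay near 0 throughout (-0.08 to 0.14). The cause was not tested. Cxcl5 in ff rests on 232 UMIs, which limits every ff class value.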
